A study of Mus musculus with 12 samples.

Results

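IGHV3-8 is a heavy chain variable gene of the mouse immunoglobulin locus, and it encoded the leading heavy chain rearrangement of the myeloma line VQ-D5. Its members were taken from the 6 deposited heavy chain libraries as the clonotypes whose first V hit was IGHV3-8 and the aligned sequences whose V call contained it. By this rule 3 of 16 clonotypes, with 2173 of 11412 counts, and 22266 of 60891 aligned sequences were IGHV3-8. VQ-D5 held all 3 of the clonotypes and 22259 of the sequences. Among these sequences the deposited junction, the stretch from the conserved cysteine codon of V to the conserved tryptophan codon of J, took 1 value in 2196 sequences and another in 1563. The 2 junctions were selected on these counts, so the counts are a description and were not tested. They are compared here to describe what each is made of: a subclone, another rearrangement and a product of library preparation or assembly would each leave other traces.

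The libraries came from total RNA of CD138+ B220- myeloma cells of bone marrow. 4 were primary cells, named VQ-D5, VQ-D4, VQ-D2 and VQ-D1, and 4935 and 4938 are cell lines derived from VQ-D2. All 6 share 1 genotype, Vκ*MYC with NrasLSL Q61R/+ and IgG1-Cre (VQ), so no group without these alleles was compared. Vκ*MYC places MYC under kappa light chain control elements, and IgG1-Cre, expressed from the IgG1 locus, removes the stop cassette of the mutant Nras allele in B cells that transcribe it. The labels state no age. Each line had 1 heavy chain library, so no difference between lines could be tested. Intervals are exact Clopper-Pearson 95% intervals and cover counting error only, since counts and sequences may not each stand for an independent molecule. Where a count was 0, the share it allows was taken as 3 over the total. That value lies below the upper end of the exact interval. Clone table counts ran from 373 to 4602 per heavy chain library and aligned sequences from 294 to 27215, with 2181 counts and 23019 sequences in VQ-D5. Only immunoglobulin transcripts were sequenced, so the CD138+ B220- label could not be checked against marker genes.

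A heavy chain variable exon is built by joining 1 V, 1 D and 1 J segment, with bases trimmed and added at the joints. A B cell and its progeny share that junction, which makes it a tag of the clone. The joined segment is useful to the cell only when V and J are in the same reading frame without a stop codon. Germinal centre B cells add point mutations to V through the deaminase AID and can switch from IgM to IgA, and plasma cell tumours keep these marks. A subclone would share the junction and carry further V mutations, whereas a second rearrangement would carry a junction of its own that ends in a J segment.

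The sequences that carry the comparison are shown here in lower case, 5′ to 3′, as deposited for VQ-D5. In the most frequent junction the capitals mark the 20 bases that the second junction shares. In the second and the third junction they mark bases 17 to 41, and the 1 base by which the third differs from the second.
the most frequent junction: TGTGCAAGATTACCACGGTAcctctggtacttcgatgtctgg
the second junction: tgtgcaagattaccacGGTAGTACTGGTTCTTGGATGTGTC
the third junction: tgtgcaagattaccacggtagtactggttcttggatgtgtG
The capitals of the second junction are not J bases of the clone. They are the reverse complement of the clone's own V segment, from V position 238 down to 214, with positions counted from 1 at the first base of IGHV3-8*02.
V positions 214 to 238 of the clone: GACACATCCAAGAACCAGTACTACC
their reverse complement: GGTAGTACTGGTTCTTGGATGTGTC
All 25 bases are identical to bases 17 to 41 of the second junction.

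The most frequent junction had 42 bases and joined IGHV3-8 to IGHD1-1 and IGHJ1. It was found in 2196 of the 6094 IGHV3-8 sequences with a junction (36.0%, interval 34.8% to 37.3%). The second junction had 41 bases and was found in 1563 (25.6%, 24.6% to 26.8%). The third, just outside the comparison, had 277 (4.55%). All sequences with a junction other than the first and the second, those of the third included, numbered 2335 (38.3%). There were 470 distinct junctions in all, 283 of which were seen once. The order of the leading pair rested on exact matches: with junctions of the same length within 1 base merged, the most frequent took 37.9% and the second 39.6%. The remaining 16165 IGHV3-8 sequences (72.6% of 22259) had no junction.

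**Figure D1:**
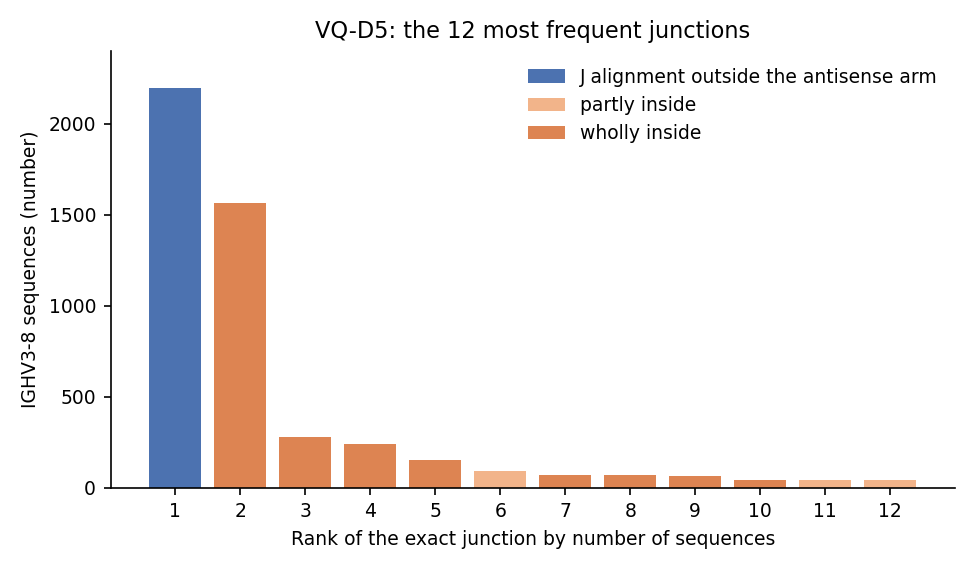
Number of IGHV3-8 sequences of VQ-D5 (vertical axis) for the 12 most frequent exact junctions, by rank (horizontal axis). Colours give where the deposited J alignment lay relative to the antisense arm: outside it in 2195 of 2196 sequences of the most frequent junction, wholly inside it in all 1563 of the second, and partly or wholly inside it in all sequences of ranks 3 to 12.

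The clone table, made separately from the aligned table, held the most frequent junction but not the second. IGHV3-8/IGHD1-1/IGHJ1 with the 42-base junction and the IgA constant gene IGHA had 2171 of 2181 counts in VQ-D5. The other IGHV3-8 clonotypes had 1 count each, with 43 bases out of frame and 39 bases in frame. A further clonotype of 2 counts, with 35 bases and IGHV3-2 as its first hit, named IGHV3-8 as its other hit and consists of the last 35 bases of the leading junction. The second junction had 0 counts, which by counting alone allows a share of up to 0.138% in VQ-D5. The filters of the clone table are not given, including whether they admit a junction without J bases of the clone. The 0 is therefore no measure of how often such sequences occurred. The second junction was also in none of the other 5 aligned tables.

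In mm10 the genes of this rearrangement lie on chromosome 12. IGHV3-8 spans 114322376 to 114322666, IGHD1-1 spans 113482170 to 113482192, IGHJ1 spans 113429781 to 113429833 and IGHA spans 113256204 to 113260236. In the rearranged clone, counted from the first base of V, the V alignment ended at position 292 and the junction ran from 283 to 324. D bases lay at 293 to 302, 3 bases without a germline match followed, J ran from 306 to 355 and the constant region began at 356. The junction, J and the start of the constant region read as follows, with J in capitals.
the clone from position 283 to 388: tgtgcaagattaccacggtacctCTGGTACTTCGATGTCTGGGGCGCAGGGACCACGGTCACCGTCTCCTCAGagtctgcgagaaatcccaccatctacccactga

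Both junctions were called with the same V and D genes, but the J calls rested on different evidence. The V call was IGHV3-8*02 alone in 2123 of 2196 sequences of the most frequent junction (96.7%) and in 1563 of 1563 of the second. IGHV3S1, the V gene most often tied with IGHV3-8, was in 124 of 22259 calls (0.557%). The D call was IGHD1-1 in every sequence of both junctions. IGHJ1 was also the J gene in all of them, but as IGHJ1*01 alone in 2154 of 2196 sequences of the most frequent junction (98.1%). In the second junction the call was tied over 3 IGHJ1 alleles in 1563 of 1563. The J alignment spanned a median of 50 bases with a score of 96.8 and 100% identity in the most frequent junction, and 17 bases with a score of 21.8 and 88.2% identity in the second. Every sequence of the second had these same J values, which the shared junction sets.

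The most frequent junction was productive and the second was not. The deposited productive flag was set in 2144 of 2196 sequences of the most frequent junction (97.6%, 96.9% to 98.2%), the other 52 holding a stop codon. It was set in 0 of 1563 of the second, and all 1563 held a stop codon. Both values were set by the selection, since the stop codon lies within the junction that these sequences share. V and J were flagged as in frame in all sequences of both, although 41 bases are no multiple of the codon length. In the second junction the stop was codon 7, TAG at bases 19 to 21, where the most frequent junction reads TAC. Base 21 is the base after the 20 shared ones. The deposited strand flag differed too. V matched the opposite strand of the assembled sequence in 1369 of 2196 sequences of the most frequent junction (62.3%, 60.3% to 64.4%) and in all 1563 of the second (lower bound 99.8%). Most sequences of both held clone bases on both strands, as given below. For these the flag tells only which strand held the copy of V that was aligned.

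To see what followed V in each sequence, it was compared on both strands with the clone from position 32 to 388. The longest word of this reference that also occurs reverse complemented within it had 9 bases, against at least 21 bases required of a match, called an arm. All 1563 sequences of the second junction held a sense arm and then an antisense arm of the clone. In 1562 of them (99.9%) the sense arm ended at position 302, the last D base, and the antisense arm began at V position 238. The exact junction by which these sequences were selected sets both arms and this hinge, so the counts repeat the same string. The arms shared 4 bases at this hinge, the GGTA at bases 17 to 20 of the junction, which occurs in D on the sense strand and in V on the other. The sense arm spanned a median of 271 bases and the antisense arm a median of 207, and 1558 of the antisense arms ran back to the start of the reference. The deposited J alignment lay wholly inside the antisense arm in all 1563, which the shared junction also sets. No sequence of the second junction held a 15-base word of the clone's J or constant region on either strand, which allows up to 0.192%. All 2196 of the most frequent junction did, which was set by the selection, since that junction itself holds such a word. Words of the constant region alone were in 2176 of 2196 sequences of the most frequent junction (99.1%) and in 0 of 1563 of the second.

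The hinge is shown in its most common form, a 120-base window shared by 847 of the 1563 sequences of the second junction (54.2%). Its last 60 bases, in capitals, are the reverse complement of V positions 179 to 238, given on the line after it.
the window at the hinge: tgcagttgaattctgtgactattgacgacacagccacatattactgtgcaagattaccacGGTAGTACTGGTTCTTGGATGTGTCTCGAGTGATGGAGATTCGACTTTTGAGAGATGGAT
V positions 179 to 238 of the clone: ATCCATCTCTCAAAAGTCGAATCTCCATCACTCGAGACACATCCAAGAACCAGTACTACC

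**Figure D2:**
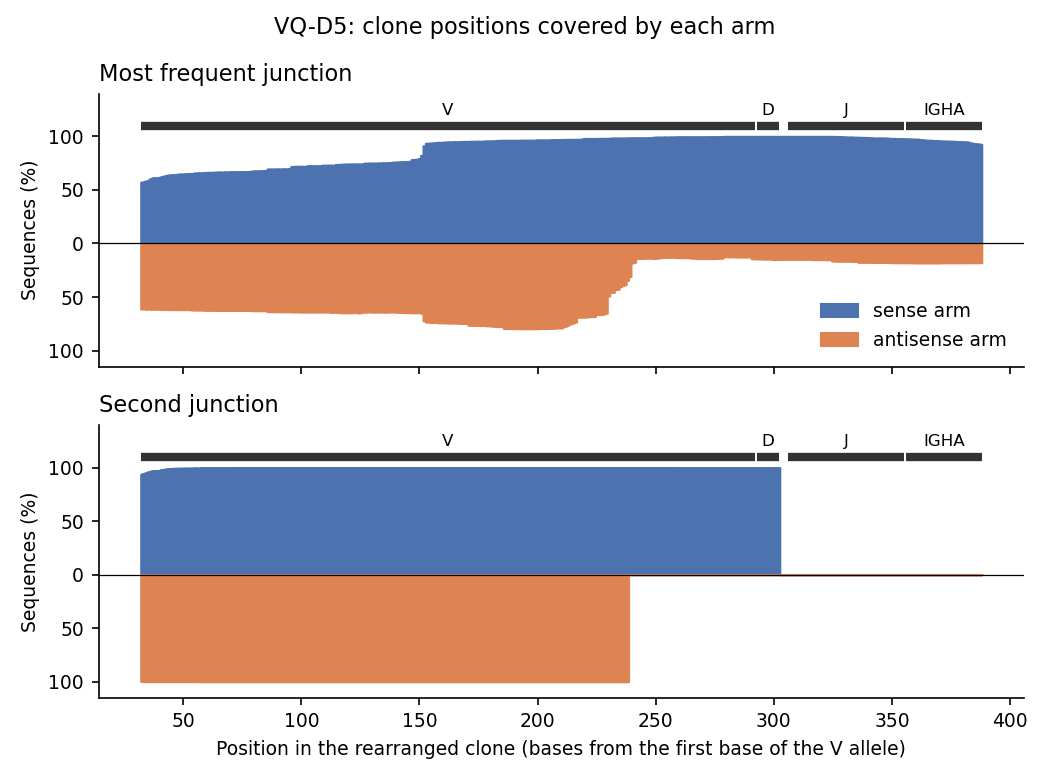
Percent of sequences (vertical axis) whose sense arm (blue, upward) or antisense arm (orange, downward) covered each position of the rearranged VQ-D5 clone (horizontal axis, bases from the first base of V), for the most frequent junction (top, 2196 sequences) and the second (bottom, 1563). In the second junction the sense arms stop at 302 and the antisense arms at 238, and neither reaches J. All sense arms of the most frequent junction enter J. Both follow from the exact junctions by which the sequences were selected.

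Antisense arms were not confined to the second junction. Of the 2196 sequences of the most frequent junction 2068 (94.2%, 93.1% to 95.1%) also held both strands of the clone. There the order was different: 1710 (77.9%) had the antisense arm before the sense arm, 358 (16.3%) had it after and 128 (5.83%) held the sense strand alone. In these sequences the sense arm ran through V, D and J, covering the last J base in 2147 of 2196. J position 316 lies within the shared junction, so its coverage in 2196 of 2196 was set by the selection. When the antisense arm came after, the median end of the sense arm was position 388, in the constant region. This is the last base of the reference, so arms could not be followed further. The J alignment touched the antisense arm in 1 of 2196. Sequences of the second junction were uniform in length, 625 to 634 bases with a median of 628, and those of the most frequent ran from 166 to 725 with a median of 702.

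Over all 22259 IGHV3-8 sequences of VQ-D5, 21956 (98.6%, 98.5% to 98.8%) held both strands of the clone. The sense arm came first in 12736 (57.2%) and the antisense arm in 9220 (41.4%). Only 299 (1.34%) held the sense strand alone and 4 the antisense strand alone. The sequences without a junction followed the same layouts. Of these 16165, 8609 had the sense arm first, with the sense arm ending at a median position of 238 and the antisense arm starting at a median of 114. Over all 16165, sense arms covered the last D base, position 302, in 637 (3.94%) and J position 316 in 4. Position 238, where the antisense arm of the second junction begins, was thus also a frequent end of sense arms: 1958 of the 8609 ended there and continued antisense from 114. Another 7433 had the antisense arm first. Their antisense arms began at a median position of 388, in the constant region, which is the last base of the reference. In 4054 of them the antisense arm ended at 333, in J. The sense arms that followed in the 7433 ended at a median of 239. What produced the antisense arms was not tested.

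**Figure D3:**
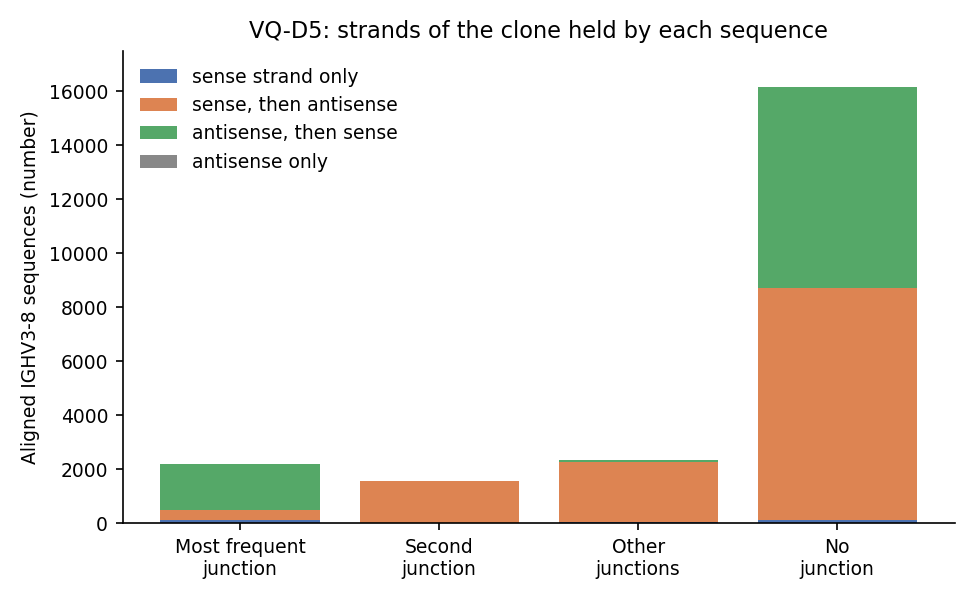
Number of aligned IGHV3-8 sequences of VQ-D5 (vertical axis) by junction class (horizontal axis), stacked by the strands of the clone that each sequence holds. Sense-only sequences number 299 of 22259, the second junction is entirely sense then antisense, and the antisense arm comes first in 1710 of 2196 sequences of the most frequent junction.

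The V segments of both junctions carried the same 6 substitutions. Over distinct IGHV3-8 sequences with at least 200 aligned V bases, A116T, A142T, G147T, C156G, C260T and G264C were each present in at least 50%, called fixed here. That was 6 of 273 positions (2.2%). The most frequent junction had the same 6 of 272 (2.21%) and the second the same 6 of 260 (2.31%). Other junctions had 6 of 272 (2.21%), and sequences without a junction 7 of 273 (2.56%), the further one being T283A in 8 of 14 sequences. The V segment of the clone is shown to place them, with the 6 substituted bases in capitals.
the clone V from position 32 to 292: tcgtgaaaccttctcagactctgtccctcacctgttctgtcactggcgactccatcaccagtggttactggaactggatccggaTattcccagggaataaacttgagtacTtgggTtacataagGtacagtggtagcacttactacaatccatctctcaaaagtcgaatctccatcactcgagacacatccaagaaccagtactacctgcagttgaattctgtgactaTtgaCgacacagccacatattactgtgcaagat
In the most frequent junction the share of distinct sequences with the substitution ran from 99.6% at A116T (811 of 814) to 100% at C260T and G264C. In the second it was 99.9% at A116T (893 of 894) and 100% at the other 5 positions. Of the sequences that covered all 6 positions, 1602 of 1607 of the most frequent junction (99.7%, 99.3% to 99.9%) and 1561 of 1562 of the second (99.9%, 99.6% to 100%) carried all 6. These shares were not tested against each other. The antisense arm of the second junction covered 4 of the 6, A116T, A142T, G147T and C156G, and held the mutated base at each in 1563 of 1563 sequences.

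Neither junction carried a further fixed substitution. Between V positions 32 and 282, the most common other change among distinct sequences of the second junction was C60A at 2.13% (19 of 894, 1.28% to 3.30%). In the most frequent junction it was C33A at 8.27% (51 of 617, 6.22% to 10.7%), near the start of the alignments. Among sequences without a junction, G246A reached 15.4% (274 of 1783) and G214C 14.6% (1864 of 12729). V alignments in this class had a median of 239 bases. Any of the 6 could also be a base that the mice's own germline gene has in place of that of IGHV3-8*02, since no unmutated sequence of these mice was analysed here.

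**Figure D4:**
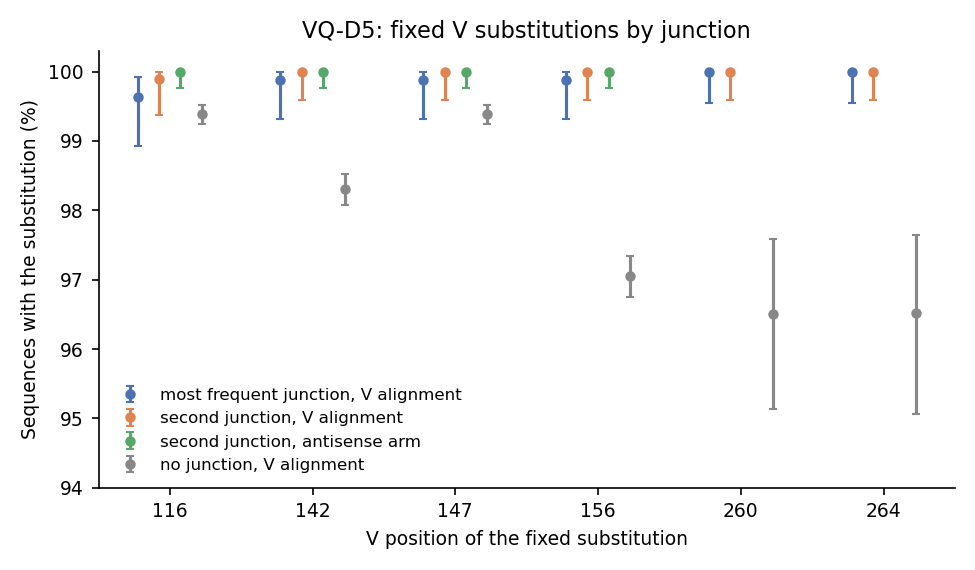
Percent of distinct sequences (all sequences for the antisense arm) that carry each fixed V substitution (vertical axis, from 94%), by V position (horizontal axis), with exact 95% intervals. Both junctions, and the antisense arm of the second at the 4 positions it covers, lie between 99.6% and 100%, and sequences without a junction between 96.5% and 99.4%.

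Rare base differences were compared between the arms of the same sequence. In the second junction, 291477 V bases were read by both arms, with 10 bases left out at each end of the shared stretch. The sense arms differed from the clone at 306 of them (1.05 per 1000) and the antisense arms at 1979 (6.79 per 1000). The same difference was in both arms at 6 positions, 1.96% of the sense arm differences. The same measure was 3.06% (11 of 359) in sequences of the most frequent junction with the antisense arm first. Their sense arms differed at 1.27 per 1000 and their antisense arms at 2.21. As a share of antisense arm differences, shared ones were 0.303% in the second junction and 1.75% in the most frequent. In sequences without a junction and with the sense arm first, 40 of 2492 sense arm differences (1.61%) were shared. These shares were not tested.

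The less frequent junctions included near copies of both. Of the 2335 sequences with other junctions, 848 were 1 base from the second, in 11 distinct forms, and 114 were 1 base from the most frequent, in 63 forms. The J alignment entered the antisense arm in 1873 of the 2335 (80.2%) and lay wholly inside it in 1466 (62.8%). Some of these were still flagged as productive: 602 of the 2335 were, and 325 of the 602 had a J alignment that entered the antisense arm. Counted over all junctions, 3437 of 6094 sequences (56.4%) had such a J alignment. Among the 2657 others the most frequent junction took 2195 (82.6%, 81.1% to 84.0%). That share was largely set by the junctions themselves, since the most frequent ends in J bases of the sense strand and the second does not.

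IGHV3-8 was nearly absent from the other 5 heavy chain libraries. The clone tables had 0 counts in each, which allows between 0.0652% in VQ-D1 and 0.804% in 4938. The aligned tables held 6 IGHV3-8 calls in VQ-D1 (0.0653% of 9195) and 1 in VQ-D2 (0.00367% of 27215), with V alignments of 16 to 55 bases. VQ-D4, 4935 and 4938 had 0, which allows up to 0.877%, 1.02% and 0.363%.

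Sequences that fold back on themselves were present in all 6 aligned tables, but a junction that ends in its own V was found almost only in VQ-D5. An inverted repeat of at least 50 bases was in 62.2% of the 23019 VQ-D5 sequences (61.6% to 62.8%) and in 40.5% of VQ-D1, 34.0% of 4935, 33.1% of 4938, 14.0% of VQ-D4 and 5.18% of VQ-D2. Among sequences with a junction the share was 94.5% in VQ-D5 (93.9% to 95.04%) and between 63.8% in VQ-D2 and 83.3% in 4935, which had 12 such sequences. The last 15 junction bases occurred reverse complemented in the V of the same sequence in 1946 of 6124 VQ-D5 sequences with a junction (31.8%). They did so in 1 of 851 in VQ-D2 and in 0 of 3814 in VQ-D1, 0 of 33 in VQ-D4, 0 of 12 in 4935 and 0 of 64 in 4938. In VQ-D5 this was 1556 of 1563 sequences of the second junction and 0 of the most frequent. Both counts follow from the exact junctions by which these sequences were selected. The 1556 among the 1946 thus repeat the same string. The second most frequent junction of VQ-D1 had 30 sequences against 3377 of its first, and that of VQ-D2 had 5 against 762. With 1 library per line these differences were not tested.

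**Figure D5:**
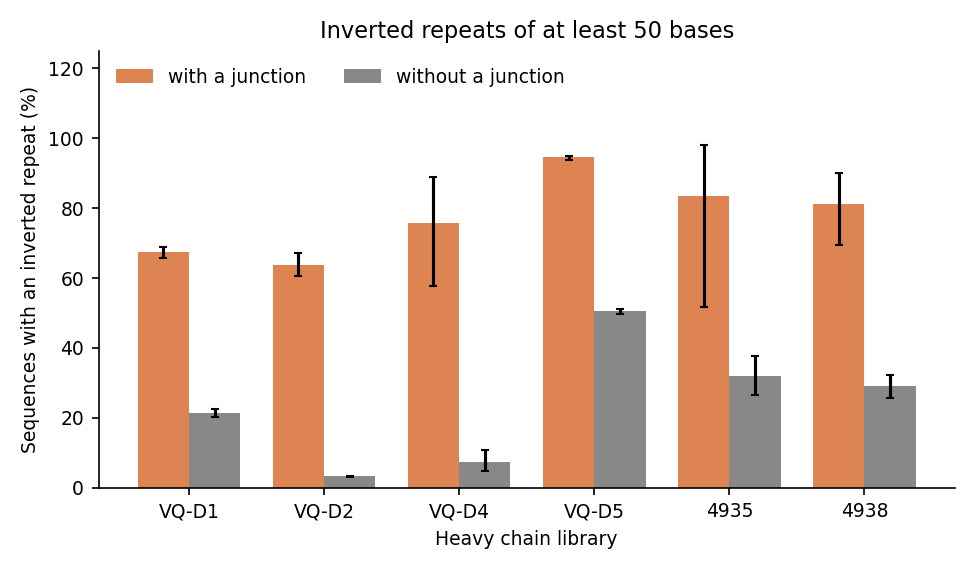
Percent of aligned sequences with an inverted repeat of at least 50 bases (vertical axis) in each of the 6 heavy chain libraries (horizontal axis), with and without a junction, with exact 95% intervals. VQ-D5 stands at 94.5% with and 50.5% without a junction, and 4935 (12 sequences) and VQ-D4 (33) have wide intervals for sequences with a junction.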

How the data were processed

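The heavy chain tables of 6 libraries were used, each from 1 line, grouped by the titles in the labels. The deposited clone tables give a count per clonotype as whole numbers and the fraction of the table it makes up, in the columns MiXCR exports per the file headers. Neither headers nor labels say what 1 count stands for, reads or molecules. The deposited aligned tables hold assembled sequences, 1 for each molecular identifier, with V, D and J calls in the AIRR layout of IgBLAST, identities in percent and alignment scores per the file headers. Tool versions, filters and germline database: not given in the sources used here. Submitters' processing notes name mm10 as the genome build. The gene table was RefSeq's GRCm38, where IGHV3-8, IGHD1-1, IGHJ1 and IGHA were matched by name.

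Substitutions were read from the V alignments to IGHV3-8*02. A position needed at least 5 sequences, and the outer 10 bases of an alignment were not read. The clone reference was the consensus of sequences with the most frequent junction, where at least 1000 covered a position and 90% shared its base. For the references of VQ-D1 and VQ-D2 at least 100 had to cover a position. An arm was the longest ungapped match spanned by at least 10 exact words of 12 bases. Inverted repeats used words of 20 bases. On simulated sequences with known arms, 500 of 500 layouts were recovered, 499 with the last clone position of each arm within 12 bases. The simulated arms all ran from the start of the reference, and sense and antisense arms met without a gap. Other layouts, such as antisense arms confined to J and the constant region, were not simulated. Of 120 planted substitutions 120 were recovered, with 0 false. No test between groups was made, so shares have exact intervals. Members, lists and settings were chosen with earlier results of these data known, and the arm, inverted repeat and junction tail searches were added after the sequences had been seen. The rule named the 2 most frequent junctions, the third, V genes tied with IGHV3-8, and fixed substitutions; IGHV3S1, below its 1%, and the other substitutions were named after their values were seen. Light chain tables were not used. Scripts ran in Python 3.11.15 with scipy 1.17.1 for intervals, matplotlib 3.10.9 for figures, and numpy 2.4.6 and pandas 2.3.3.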

Additional observations from a re-analysis of the deposited data

How the results depend on the processing

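The shares of the junctions depended on how sequences were counted. Against 36.0% and 25.6% as reported, the most frequent and the second junction took 32.3% and 20.1% of distinct sequences, and 29.1% and 28.9% of those with at least 200 aligned V bases. With junctions of the same length within 1 base merged they took 37.9% and 39.6%, so that the second passed the most frequent. Without sequences whose J alignment enters the antisense arm, an alternative chosen after seeing the data, they took 82.6% and 0%. That setting removes every sequence of the second junction, so its 0% and the ratio of 0 given next were fixed in advance. It keeps nearly every sequence of the most frequent junction, which ends in J bases of the sense strand, so the 82.6% was largely set too. The second junction per 100 sequences of the most frequent was 71.2 as reported, and 62.2, 99.4, 104 and 0 under these settings in the same order. Both shares and the ratio stayed within their intervals with the first V call only. The IGHV3-8 share of VQ-D5 sequences was 96.7%, and 99.6% with at least 200 V bases. In VQ-D1 it was 0% with at least 200 V bases, and in VQ-D2 0% under that setting and 0% with the first V call only. The clone table share, the number of fixed substitutions and the shares carried kept their values within counting error under each alternative run. Counting only sequences with at least 2 reads was not run, because the tables used here do not record reads per sequence. No paired analysis was possible because each line has 1 heavy chain library and no result comes from a test. Depth limits 4935, VQ-D4 and 4938, with 12, 33 and 64 junctions.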

Other observations

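The arm search was repeated in the other deep libraries, each against its own leading junction. A reference position there needed at least 100 covering sequences, against 1000 in VQ-D5. In VQ-D1, 4180 of 4371 IGHV3-2 sequences held both strands of their clone (95.6%, 94.98% to 96.2%). In VQ-D2, 12779 of 26122 IGHV4-1 sequences did (48.9%, 48.3% to 49.5%). The references differ in extent, from position 47 to 412 in VQ-D1, 123 to 420 in VQ-D2 and 32 to 388 in VQ-D5, so the shares do not rank the libraries. IGHV3-8 of VQ-D5 had 299 sense-only sequences of 22259, IGHV3-2 of VQ-D1 had 181 of 4371 and IGHV4-1 of VQ-D2 had 12961 of 26122.

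Several hinges of VQ-D5 had an end at or near position 238 of the IGHV3-8 clone. Antisense arms began there in all 1563 sequences of the second junction, after a sense arm that ended at 302 in 1562 of them. Their shared junction sets this pair of ends. The same pair was in 820 sequences of other junctions, a class in which 848 of 2335 sequences were 1 base from the second junction. Among sequences without a junction, sense arms ended at 238, 242 and 240 in 1958, 1071 and 467 sequences and continued antisense from 114, 110 and 112, with 1 base shared by the arms. A pair of hinges common in the other junctions joined sense position 297 to antisense 239 (309 sequences) and 303 to 233 (145 sequences), with 0 bases shared. The leading hinge of the most frequent junction with the sense arm first lay elsewhere. It joined sense position 388, the end of the reference, to antisense 216 in 96 of 358 sequences.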
